A study of Homo sapiens with 14 samples.

Results

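MDA-MB-231 cells in which MLL1 had been knocked out were compared directly with MDA-MB-231 cells in which SAP30 had been knocked out, so that whatever the edited lines have in common does not enter the difference. The members of the comparison were the 8 libraries of 14 whose labels name either knockout, 4 from MLL1-KO and 4 from SAP30-KO. Each genotype was represented by 2 lines (KO1 and KO2) and each line by 2 libraries. MDA-MB-231 is an established triple-negative breast cancer (TNBC) cell line. Both genotypes were made from it with CRISPR/Cas9 under puromycin selection and were cultured without further treatment, and each line is a mixture of several knockout clones, so that a line value is an average over clones. The 2 libraries of a line share that line, and nothing in the labels says that they came from separate cultures, so p-values measure only the spread between libraries, which may be technical. Parental cells (2 libraries) and lines with both SIN3A and SIN3B knocked out (SIN3A/3B-DKO, 4 libraries) are given beside some values and were not tested here.

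MLL1 (gene symbol KMT2A) is a histone methyltransferase of the COMPASS family. With menin, WDR5, RBBP5, ASH2L and DPY30 it places methyl groups on lysine 4 of histone H3 at promoters and enhancers, a mark of active genes, and the HOX genes are its classical targets. SAP30 is a subunit of the SIN3 complex, in which the scaffolds SIN3A and SIN3B hold the deacetylases HDAC1 and HDAC2. The complex is best known for silencing genes and has also been linked to activation. The study asked whether SAP30 and MLL1 act together on genes, which makes a direct contrast between their knockouts a view of the RNAs on which the lines differ.

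The targeted genes were examined first, in TPM (the share of a library taken by a transcript after correction for its length). SAP30 (chromosome 4, 174291120 to 174298683 on GRCh37) was at 86.9 and 81.1 TPM in MLL1-KO1, at 110 and 108 TPM in MLL1-KO2, at 3.13 and 3.72 TPM in SAP30-KO1, and at 4.96 and 2.75 TPM in SAP30-KO2. All 4 SAP30-KO libraries lay far below all 4 MLL1-KO libraries and below the parental values of 78.9 and 82.8 TPM. The log2 difference, MLL1-KO minus SAP30-KO, was 4.56 ± 0.13 (SE, adjusted p = 8.2e-09). KMT2A (chromosome 11, 118307171 to 118397547) was at 17.4 and 15.8 TPM in MLL1-KO1, at 25.7 and 27.7 TPM in MLL1-KO2, at 31.6 and 23.01 TPM in SAP30-KO1, and at 35.4 and 31.3 TPM in SAP30-KO2. These ranges overlapped, and every library of both genotypes lay below the parental values of 56.7 and 49.0 TPM. The difference of -0.50 ± 0.10 (SE) between the genotypes was not called (largest adjusted p = 0.94). The labels of the MLL1-KO lines are therefore not checked by the level of KMT2A RNA in this contrast, and editing need not lower the RNA of the edited gene.

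Reads recovered from the deposited values numbered 18414980 to 23162603 per library over all 14. Pearson's r over the tested genes was 0.990 to 0.993 between the libraries of a line, 0.990 to 0.991 between the SAP30-KO lines, 0.979 to 0.980 between the MLL1-KO lines, and 0.948 to 0.958 between the genotypes. All 7 markers expected in MDA-MB-231 were present, and they summed to 10049 to 12690 TPM in MLL1-KO and 10382 to 10997 TPM in SAP30-KO. Of 6 markers expected to be low there, 3 (ESR1, PGR and CDH1) were under 1 TPM in all 8 libraries. GATA3 was at 8.16 to 12.9 TPM in MLL1-KO and 15.4 to 17.3 TPM in SAP30-KO, and EPCAM at 5.33 to 9.86 and 6.55 to 9.83 TPM. ERBB3 was at 1.73 to 2.18 and 5.29 to 6.997 TPM and was called lower. Of markers of other cells, 4 of 8 endothelial (CDH5, VWF, TEK and CLDN5), 3 of 6 leukocyte (among them CD3E and PTPRC) and 4 of 6 fibroblast genes (COL1A2, COL3A1, DCN and LUM) were under 1 TPM in all 8 libraries. ESAM (66.1 to 79.8 TPM in MLL1-KO, 137 to 143 TPM in SAP30-KO) carried most of the endothelial sum and was called lower, PECAM1 was at 2.69 to 3.97 TPM throughout, and TIE1 reached 2.06 TPM in MLL1-KO and at most 0.0349 TPM in SAP30-KO. CD68 (159 to 230 and 271 to 287 TPM) carried most of the leukocyte sum, CD14 (0.679 to 1.31 and 3.18 to 3.98 TPM) was called lower and LYZ (5.23 to 6.32 and 1.97 to 3.49 TPM) higher. The fibroblast markers summed to 10.5 to 15.3 TPM in MLL1-KO and 9.08 to 10.6 TPM in SAP30-KO with no call, and the part of other cells in the results was not tested. In bulk RNA, fewer cells expressing a gene and less RNA per cell cannot be told apart.

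Differences were measured on the log2(TPM + 0.5) scale as the mean of the 4 pairs of 1 MLL1-KO and 1 SAP30-KO line, with the standard error (SE) of the same fit, and a negative value means lower in MLL1-KO. Like the p-values, the SE covers only the spread between libraries of a line. It leaves out the spread between lines, and the 4 pairs share lines. For S100A4, for example, the SE was 0.07 while the pairs ran from 0.89 to 3.58. A gene was called when limma's Benjamini-Hochberg adjusted p was under 0.05 and the difference at least 1.5-fold in the same direction in all 4 pairs. Each adjusted p printed is the largest of the 4. Of the 13540 genes tested, 1162 were called lower (8.58%) and 439 higher (3.24%) in MLL1-KO. At least 2-fold differences in every pair were found for 517 of the lower and 195 of the higher genes, and mean differences of at least 8-fold for 59 and 29. The median difference was -1.19 among the lower calls, 1.16 among the higher calls, and -0.10 over all genes tested. Quantile normalization and median-ratio scaling moved that last median to 0.01 and 0.00, and lower genes then made up 53.4% and 60.6% of calls, against 72.6% as deposited. The 20 highest genes of a library took 8.44% to 8.87% of all TPM in MLL1-KO and 7.30% to 7.54% in SAP30-KO.

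**Figure D1:**
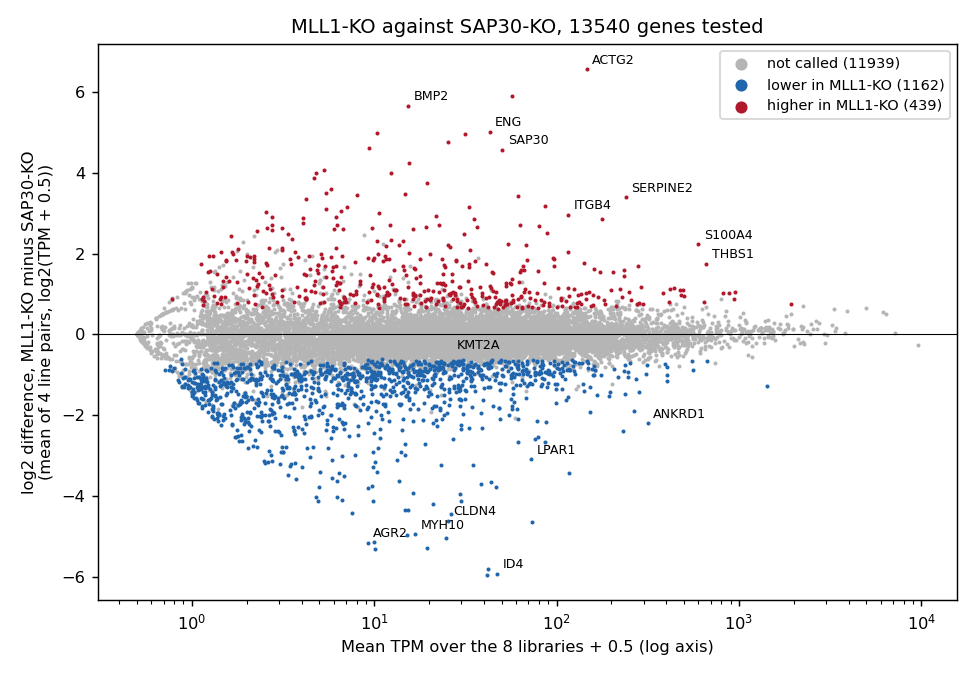
Difference between MLL1-KO and SAP30-KO (log2 scale, mean of 4 line pairs) against the mean TPM over the 8 libraries plus 0.5 (log axis) for the 13540 genes tested. Each point is a gene, blue marks the 1162 genes called lower and red the 439 called higher in MLL1-KO, and the differences reach -5.94 (NGFR) and 6.55 (ACTG2) among the named genes.

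Pairs that share no line were set side by side. MLL1-KO1 against SAP30-KO1 gave 2135 lower genes (15.8% of those tested) and 753 higher (5.56%), and MLL1-KO2 against SAP30-KO2 gave 1729 lower (12.8%) and 1155 higher (8.53%). The 1316 lower genes shared by both were 61.6% of the first list and 76.1% of the second, the 521 shared higher genes were 69.2% and 45.1%, and 29 genes were called in opposite directions. The lines of a genotype were not equally close, since 1411 genes (10.4%) differed by the same rule between MLL1-KO1 and MLL1-KO2 and 20 (0.148%) between SAP30-KO1 and SAP30-KO2. Of the genes called between the genotypes, 209 of the lower (18.0%) and 102 of the higher (23.2%) also differed between the MLL1-KO lines. The parental mean lay nearer to SAP30-KO for 865 of the 1162 lower genes and nearer to MLL1-KO for 297. For the 439 higher genes it lay nearer to SAP30-KO for 291 and nearer to MLL1-KO for 148. The parental mean was between the genotype means for 692 lower and 268 higher genes. It was above both for 413 and 38 and below both for 56 and 132, so the nearer genotype need not be at the parental level. Shares over all tested genes are not given here.

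**Figure D2:**
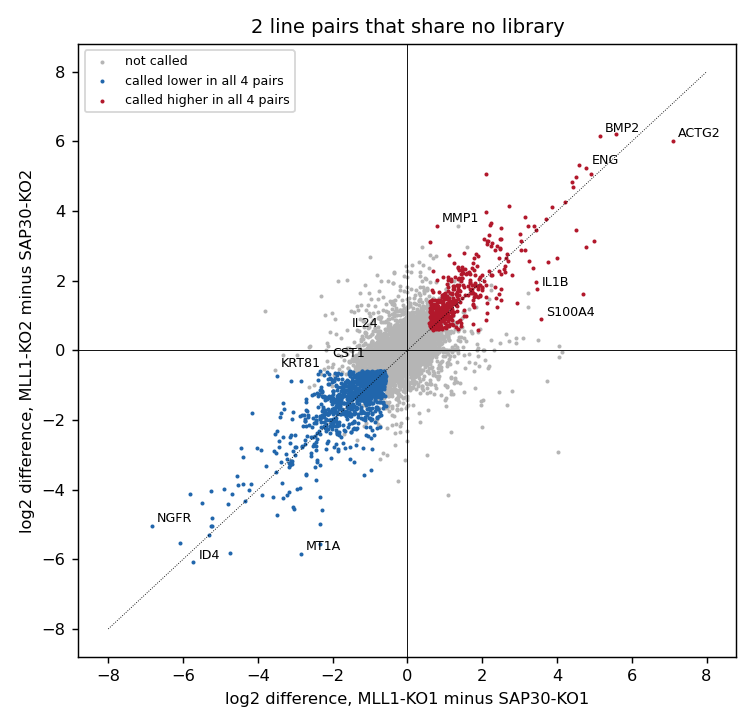
Difference of MLL1-KO2 against SAP30-KO2 (vertical axis, log2 scale) over that of MLL1-KO1 against SAP30-KO1 (horizontal axis, log2 scale), 1 point per tested gene, with blue and red for the 1162 and 439 genes called in all 4 pairs of lines. ENG and ID4 lie close to the dotted diagonal of equal differences, and NGFR, S100A4, MT1A, MMP1 and KRT81 lie away from it.

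The largest differences among genes with at least 5 TPM in the higher genotype were in genes of very different function. Higher in MLL1-KO were ACTG2, APCDD1L and its neighbour APCDD1L-AS1, BMP2, ENG, MFAP2, FAM83A and MAGEC1. Lower in MLL1-KO were NGFR, ID4, C4BPB, DCAF8L2, LINC00261, AGR2, EEF1A2 and GDF15. These include the neurotrophin receptor p75 (NGFR), a chain of the complement regulator C4b-binding protein (C4BPB), a cancer-testis antigen (MAGEC1) and a long noncoding RNA (LINC00261). ACTG2, the smooth muscle gamma actin (chromosome 2, 74119441 to 74146992), was at 291 and 313 TPM in MLL1-KO1, at 278 and 278 TPM in MLL1-KO2, at 1.67 and 1.74 TPM in SAP30-KO1, and at 3.69 and 3.94 TPM in SAP30-KO2. Every MLL1-KO library was far above every SAP30-KO library, with the parental libraries between at 10.7 and 9.44 TPM. The difference was 6.55 ± 0.09 (SE, adjusted p = 5.2e-11), and the ratio of the means was 105-fold. ID4, an inhibitor of basic helix-loop-helix factors (chromosome 6, 19837601 to 19842428), went the other way. It was at 1.42 and 1.06 TPM in MLL1-KO1, at 1.03 and 0.718 TPM in MLL1-KO2, at 91.3 and 92.7 TPM in SAP30-KO1, and at 94.8 and 90.3 TPM in SAP30-KO2, with parental values of 9.47 and 7.99 TPM. The genotypes did not overlap, and parental cells stood between them at a level nearer to MLL1-KO (difference -5.91 ± 0.08, SE, adjusted p = 5.8e-11).

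NGFR was at 0.108 and 0.146 TPM in MLL1-KO1, at 2.03 and 2.56 TPM in MLL1-KO2, at 72.6 and 69.8 TPM in SAP30-KO1, and at 94.6 and 88.2 TPM in SAP30-KO2. It was far lower in both MLL1-KO lines and there again lower in MLL1-KO1, and parental cells lay between the genotypes at 12.6 and 11.3 TPM (-5.94 ± 0.06, SE, adjusted p = 2.2e-11). C4BPB was at 0.821, 0.729, 1.11 and 1.28 TPM in the MLL1-KO libraries and at 80.1, 91.5, 76.7 and 78.8 TPM in those of SAP30-KO. Here the parental libraries, at 140 and 147 TPM, were above both (-5.80 ± 0.06, SE, adjusted p = 3.4e-12). APCDD1L (chromosome 20, 57034157 to 57090455) was at 103, 102, 118 and 124 TPM in MLL1-KO and at 1.52, 1.78, 1.08 and 1.18 TPM in SAP30-KO, with 21.9 and 23.4 TPM in parental cells (5.90 ± 0.07, SE, adjusted p = 2.7e-11). Its antisense partner APCDD1L-AS1, whose annotated ends overlap it, moved with it (4.62 ± 0.11), and whether the authors counted by strand is not given in the sources used here.

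**Figure D3:**
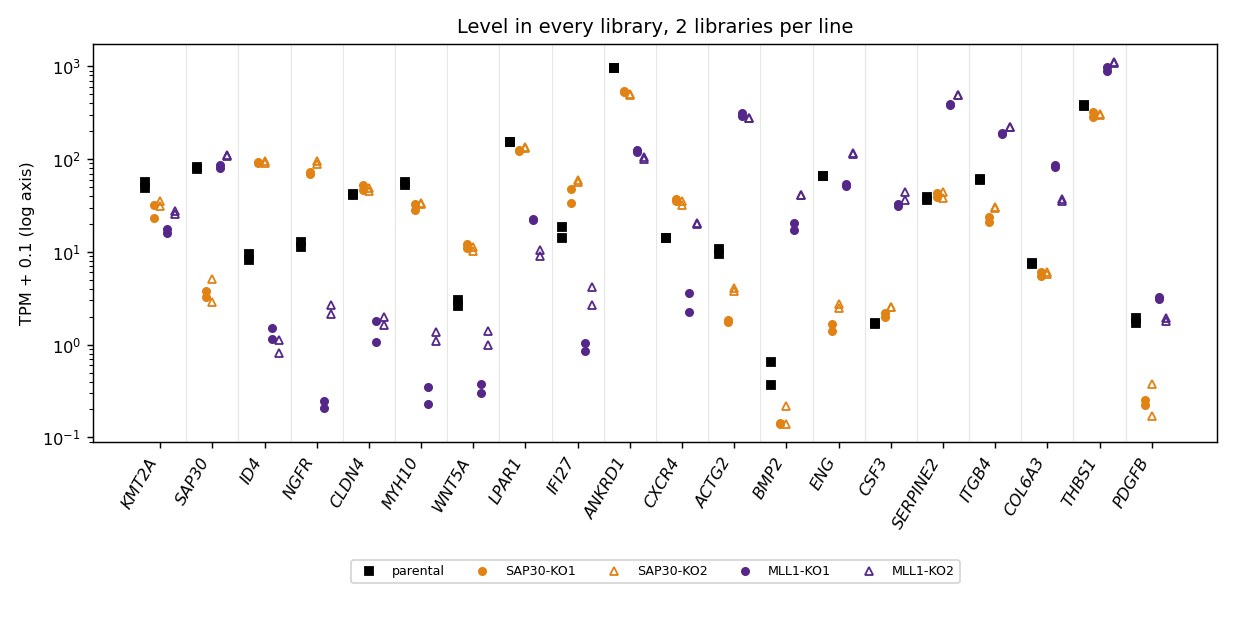
TPM plus 0.1 of 20 genes in every library (log axis), with squares for parental cells, orange symbols for the SAP30-KO lines and violet symbols for the MLL1-KO lines, 2 libraries per line. The genotypes do not overlap for any gene shown other than KMT2A, and genes such as ACTG2, BMP2 and SERPINE2 lie above in MLL1-KO while ID4, CLDN4 and IFI27 lie above in SAP30-KO.

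Promoter sequences are shown for 3 groups of genes on which the results below turn, because each group has a well-known binding motif. They come from RefSeq on GRCh38.p14, run in the direction of transcription, and have the motif in capitals with up to 15 bases on either side of the outermost matches. The stretch stops at the gene start, which leaves fewer bases after the last match of OAS3 and of IFIT5. The interferon-stimulated response element (ISRE) was searched as GAAA with a second GAAA after any 2 bases, the TEAD motif as GGAATG and the CArG box of serum response factor by its usual definition, in the 250 bases before the gene start and on both strands, so that a capital run beginning with TTTC is a match on the other strand. At least 1 ISRE was found in 1061 of 35116 promoters (3.02%), a TEAD motif in 4175 (11.9%) and a CArG box in 407 (1.16%). A match is a description of the letters and not of a bound site.
IFI27 (chr14:94110613-94110665, plus strand): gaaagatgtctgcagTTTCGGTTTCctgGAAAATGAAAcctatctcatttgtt
OAS3 (chr12:112938316-112938473, plus strand): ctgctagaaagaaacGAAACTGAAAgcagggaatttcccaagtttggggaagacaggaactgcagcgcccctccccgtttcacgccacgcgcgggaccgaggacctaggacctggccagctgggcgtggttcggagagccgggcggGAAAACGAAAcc
IFI6 (chr1:27672261-27672363, minus strand): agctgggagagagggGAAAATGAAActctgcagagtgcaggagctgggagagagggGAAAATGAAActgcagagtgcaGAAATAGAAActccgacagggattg
IFIT5 (chr10:89414508-89414567, plus strand): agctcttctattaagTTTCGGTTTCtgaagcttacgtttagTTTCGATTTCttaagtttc
ACTG2 (chr2:73892883-73892959, plus strand): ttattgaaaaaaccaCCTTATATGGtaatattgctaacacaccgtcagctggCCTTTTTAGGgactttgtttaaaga
ANKRD1 (chr10:90921195-90921322, minus strand): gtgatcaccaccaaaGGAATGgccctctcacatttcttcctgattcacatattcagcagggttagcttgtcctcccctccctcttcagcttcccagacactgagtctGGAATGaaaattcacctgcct

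Every interferon-stimulated gene called was lower in MLL1-KO. Of 43 tested, 11 were called lower (25.6%, beside 8.58% of all genes) and 0 higher, and the median difference of the list was -0.57. By limma's unadjusted p under 0.05 for the mean of the 4 pairs, 4 of the 43 were higher, and voom called 0 higher. The 11 were IFI27, OAS1, MX1, MX2, TRIM22, OAS3, IFI6, XAF1, OAS2, IFIT2 and IFIT5. IFI27, a mitochondrial interferon-induced protein (chromosome 14, 94571182 to 94583032 on GRCh37), was at 0.941 and 0.764 TPM in MLL1-KO1, at 4.08 and 2.56 TPM in MLL1-KO2, at 33.5 and 47.5 TPM in SAP30-KO1, and at 57.1 and 59.5 TPM in SAP30-KO2. The parental libraries, at 13.9 and 18.6 TPM, lay between the genotypes (difference -4.44 ± 0.15, SE, adjusted p = 1.7e-07). OAS1, which makes the oligoadenylates that turn on RNase L, was at 2.78, 2.50, 0.816 and 0.770 TPM in the MLL1-KO libraries and at 26.4, 29.2, 20.8 and 21.97 TPM in those of SAP30-KO. The groups were wide apart (-3.63 ± 0.05, SE, adjusted p = 4.2e-10). The related OAS3 differed by -1.81 ± 0.05 and IFI6, an interferon-induced inhibitor of apoptosis, by -1.43 ± 0.12. IFIT5, which binds viral RNA, differed by -1.04 ± 0.03 and the antiviral GTPase MX1 by -2.07 ± 0.12.

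Not all of the list was called. ISG15, the ubiquitin-like modifier that is a standard interferon readout, was at 81.8 to 100 TPM in MLL1-KO and 105 to 121 TPM in SAP30-KO and was not called (-0.27 ± 0.03). Quantile normalization and median-ratio scaling each left 10 interferon genes lower and 0 higher. An ISRE was found in the RefSeq promoter of 23 of the 34 list members with an entry (67.6%) and of 5 of the 7 called members with one. Of 19 tested genes of MHC class I and antigen presentation, 4 were lower (21.1%, beside 8.58% of all genes) and 0 higher, with a median of -0.26. The 4 were PSMB9, HLA-B, HLA-C and TAP1, and by limma's unadjusted p 2 genes of the list were higher (0 by voom). HLA-C was at 14.9 to 16.5 TPM in MLL1-KO and 27.9 to 29.3 TPM in SAP30-KO (-0.85 ± 0.04), and its reads can be shared with other class I genes. The immunoproteasome subunit PSMB9 (1.39 to 2.66 TPM in MLL1-KO and 4.18 to 5.11 TPM in SAP30-KO) lost its call under quantile and median-ratio scaling. Of this list, median-ratio scaling left 3 genes lower, and quantile normalization and subtraction of neighbouring genes 2 each.

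BMP and TGF-beta genes differed in both directions. Of 39 tested (23.1% lower and 17.9% higher, beside 8.58% and 3.24% of all genes), 9 were lower (ID4, GDF15, INHBB, FST, TGFB2, BMP8B, SMAD6, TGFBR3 and SMAD3) and 7 higher (BMP2, ENG, TGFBI, LTBP2, BMP4, SMAD7 and FSTL3), and the median was 0.03. Quantile normalization gave 8 lower and 9 higher. Among ligands, BMP2 (chromosome 20, 6748333 to 6760893) was at 17.1 and 20.4 TPM in MLL1-KO1, at 40.8 and 40.7 TPM in MLL1-KO2, and at 0.0441, 0.0409, 0.0380 and 0.116 TPM in the SAP30-KO libraries, which held 1, 1, 1 and 3 reads. It was at or under 3 reads in every SAP30-KO library and was also low in parental cells, at 0.265 and 0.544 TPM. The ratio of read counts scaled to depth was 478, with an exact 95% counting interval from 219 to 1304. BMP4 was at 314, 312, 354 and 361 TPM in MLL1-KO and at 162, 152, 163 and 164 TPM in SAP30-KO, a difference of 1.06 ± 0.02 with the parental libraries in between at 240 and 249 TPM. GDF15, a stress-induced ligand of the family, was at 0.716 to 1.45 TPM in MLL1-KO and at 36.0 to 58.2 TPM in SAP30-KO (-5.02 ± 0.17, adjusted p = 4.5e-08).

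Endoglin, the product of ENG and a co-receptor for BMP9 and TGF-beta (chromosome 9, 130577292 to 130616937), was at 53.4 and 51.4 TPM in MLL1-KO1, at 115 and 113 TPM in MLL1-KO2, and at 1.57, 1.29, 2.40 and 2.67 TPM in SAP30-KO. The parental libraries, at 65.8 and 65.7 TPM, lay within the range of the MLL1-KO libraries. The difference was 5.01 ± 0.08 (SE, adjusted p = 5.9e-10). Of the targets of BMP signalling, ID4 was among the genes with the largest negative differences. ID1 was at 34.4 to 43.1 TPM in MLL1-KO and 23.9 to 26.6 TPM in SAP30-KO (0.61 ± 0.04) and was not called, since its lowest pair of lines, at 0.43, was under 1.5-fold, except with the line as the replicate.

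Contractile genes of smooth muscle were called about as often as all genes. Of 26 tested, ACTG2 was the only one higher (3.85%, beside 3.24% of all genes), MYH10 and FHL1 were lower (7.69%, beside 8.58%), and the median was -0.14. The ACTG2 promoter printed above holds 2 CArG boxes, the element that serum response factor binds, and such a box was present in 1.16% of promoters. MYH10, the heavy chain of nonmuscle myosin IIB, was at 0.253 and 0.128 TPM in MLL1-KO1, at 0.989 and 1.26 TPM in MLL1-KO2, and at 32.9, 28.2, 33.5 and 32.6 TPM in SAP30-KO. The genotypes did not overlap, and parental cells had 56.7 and 52.3 TPM (difference -4.93 ± 0.08, SE, adjusted p = 3.2e-10). ACTA2, the alpha actin of smooth muscle, was at 0.526 to 1.48 TPM in MLL1-KO and 1.88 to 2.57 TPM in SAP30-KO and was not called (-0.91 ± 0.14), except without replicate 2 of MLL1-KO1 (-1.01), with the line as the replicate, or with a pseudocount of 0.1. Actin genes are near-identical, so reads can be shared among them, and the value of ACTG2 carries that uncertainty.

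Matrix genes were more often higher than lower in MLL1-KO. Among 20 collagen genes tested, 9 were higher (45.0%, beside 3.24% of all genes) and 1 lower, and the median was 0.39. The 9 were COL6A3, COL17A1, COL27A1, COL7A1, COL9A3, COL18A1, COL16A1, COL6A1 and COL15A1. COL6A3, a chain of the beaded-filament collagen VI, was at 85.6 and 81.3 TPM in MLL1-KO1, at 35.5 and 36.8 TPM in MLL1-KO2, and at 5.46 to 5.96 TPM in SAP30-KO, where the parental value was 7.37 and 7.52 TPM. All MLL1-KO libraries were higher, although the lines differed from each other (3.15 ± 0.06, SE, adjusted p = 1.1e-09). COL9A2 was the exception, at -1.49 ± 0.10. COL4A1 of basement membrane overlapped between the genotypes, at 28.8 to 49.0 TPM and 36.0 to 46.6 TPM (-0.12 ± 0.05, not called).

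Integrins and laminins included subunits of the same adhesion structure. Of 22 tested, 5 were higher (22.7%, beside 3.24% of all genes) and 3 lower (13.6%, beside 8.58%). Among the higher were ITGB4, LAMB1, ITGA6 and ITGB8, and the lower were ITGB3, LAMA3 and ITGB2. ITGB4, which pairs with ITGA6 in hemidesmosomes, was at 190, 186, 221 and 224 TPM in MLL1-KO and at 23.9, 20.9, 29.5 and 30.4 TPM in SAP30-KO, with parental values of 59.9 and 61.2 TPM. No library overlapped (2.96 ± 0.05, adjusted p = 5.8e-10). LAMA3, a chain of a laminin that this integrin binds, differed by -1.66 ± 0.07. ITGB3, the beta chain of the vitronectin receptor, was at 0.902 to 1.06 TPM in MLL1-KO and 10.2 to 11.9 TPM in SAP30-KO (-3.01 ± 0.07).

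Of 24 matrix protease genes tested, 6 were higher (ADAMTS7, MMP1, ADAMTS6, PLAU, MMP14 and PLAUR) and 3 lower (MMP24, ADAMTS12 and MMP11), MMP1 not when the line was taken as the replicate. PLAU, the urokinase plasminogen activator, was at 514, 516, 643 and 638 TPM in MLL1-KO and 295, 293, 230 and 238 TPM in SAP30-KO (1.13 ± 0.02, adjusted p = 8.7e-09), and its receptor PLAUR was called in the same direction. Among serpins and related inhibitors, 4 of 17 were higher (23.5%, beside 3.24% of all genes) and 3 lower (17.6%, beside 8.58%), with a median of 0.51. SERPINE2, an inhibitor of urokinase and thrombin, was at 381, 394, 493 and 486 TPM in MLL1-KO and at 43.2, 38.8, 38.0 and 44.3 TPM in SAP30-KO. The SAP30-KO libraries were at the parental level of 39.1 and 36.5 TPM and the MLL1-KO libraries well above it (3.39 ± 0.05, adjusted p = 1.1e-10). SERPINB7 differed by 3.45 ± 0.11 and SERPINB9, an inhibitor of granzyme B, by -2.05 ± 0.11.

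Tight junction genes were lower in MLL1-KO in 6 of 15 tested and higher in 0, with a median of -0.61. The members were CLDN4, CLDN23, OCLN, CLDN7, CGN and CGNL1. Median-ratio scaling gave 5 lower and 1 higher, and quantile normalization 3 and 2. CLDN4, a claudin of simple epithelia (chromosome 7, 73213872 to 73247020), was at 1.68 and 0.956 TPM in MLL1-KO1, at 1.54 and 1.91 TPM in MLL1-KO2, at 51.9 and 46.1 TPM in SAP30-KO1, and at 48.5 and 45.6 TPM in SAP30-KO2. SAP30-KO was close to the parental 42.5 and 41.4 TPM, and MLL1-KO was far below (-4.61 ± 0.14, SE, adjusted p = 1.5e-08). Keratins showed 3 of 11 higher (27.3%, beside 3.24% of all genes), namely KRT7, KRT15 and KRT17. KRT80 was lower (9.09%, beside 8.58%), but not after quantile or median-ratio scaling or subtraction of neighbouring genes. KRT7 was at 483, 490, 229 and 221 TPM in MLL1-KO and 109, 114, 105 and 108 TPM in SAP30-KO (1.60 ± 0.03).

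Genes used to mark the epithelial-mesenchymal transition included 5 of 17 that were higher (29.4%, beside 3.24% of all genes), namely S100A4, CDH3, SNAI1, SNAI2 and FN1. CDH11 was lower (5.88%, beside 8.58%). SNAI1 and SNAI2 encode repressors of E-cadherin, FN1 encodes fibronectin, and CDH3 is P-cadherin, an epithelial cadherin. CDH3 was at 3.53, 3.84, 1.73 and 1.40 TPM in MLL1-KO and at 0.195, 0.422, 0.420 and 0.314 TPM in SAP30-KO (1.82 ± 0.13). E-cadherin itself (CDH1) was at most 0.203 TPM in all 8 libraries. Vimentin (VIM) was at 8571 and 8805 TPM in MLL1-KO1, at 5932 and 6114 TPM in MLL1-KO2, and at 6893 to 7255 TPM in SAP30-KO, so that the SAP30-KO libraries lay between the MLL1-KO lines (0.03 ± 0.02, not called).

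Inflammatory cytokine genes were lower in 6 of 19 tested (31.6%, beside 8.58% of all genes) and higher in 3 (15.8%, beside 3.24%), with a median of -0.52. The lower genes were IL18, CCL26, IL6, CSF1, IL11 and EBI3, and the higher were CSF3, IL1B and CXCL1. IL1B was not called with the line as the replicate (largest adjusted p = 0.053). IL18 was at 5.88, 3.69, 4.38 and 4.25 TPM in MLL1-KO and 36.7, 31.6, 29.5 and 32.0 TPM in SAP30-KO, with parental values of 74.9 and 67.2 TPM (-2.72 ± 0.11, adjusted p = 1.4e-07). CSF3, the granulocyte colony-stimulating factor, was at 32.5, 31.3, 36.2 and 43.9 TPM in MLL1-KO and at 1.89, 2.12, 2.44 and 2.42 TPM in SAP30-KO. The SAP30-KO libraries lay near the parental 1.57 and 1.62 TPM and the MLL1-KO libraries far above (3.74 ± 0.21, adjusted p = 2.9e-06). CXCL8 was not called (0.68 ± 0.09), and IL6 (-1.74 ± 0.20) was not called without replicate 1 of MLL1-KO1 (-1.57) or without replicate 2 of SAP30-KO2 (-1.69).

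As deposited, receptors for chemoattractants held the largest share of calls of any list described here. Of 12 tested, 6 were lower (LPAR1, S1PR3, CMKLR1, CXCR4, F2RL1 and F2R) and 2 higher (CCR1 and S1PR1), and the median was -0.73. The shares over all genes were 8.58% lower and 3.24% higher. Quantile normalization gave 6 lower and 3 higher, median-ratio scaling 4 and 2, and subtraction of neighbouring genes 4 and 3. Under median-ratio scaling the share of calls was no larger than among the 20 collagen genes, with 9 higher and 1 lower. LPAR1, a receptor for lysophosphatidic acid, was at 21.9, 22.8, 10.5 and 8.96 TPM in MLL1-KO and at 125, 123, 134 and 132 TPM in SAP30-KO (-3.08 ± 0.04, adjusted p = 1.5e-10), and parental cells had 153 TPM in each library. The sphingosine 1-phosphate receptors moved apart, since S1PR3 differed by -2.71 ± 0.05 and S1PR1 by 1.80 ± 0.14. CCR1, a receptor for CCL3 and CCL5, was at 7.43 to 10.6 TPM in MLL1-KO and at 0.530 to 0.716 TPM in SAP30-KO (3.10 ± 0.12). CXCR4, the receptor of CXCL12, was at 3.49 and 2.17 TPM in MLL1-KO1, at 20.2 and 20.1 TPM in MLL1-KO2, and at 32.1 to 36.7 TPM in SAP30-KO. It was lower in both MLL1-KO lines, to unequal extent (-2.10 ± 0.10), and was not called when the line was taken as the replicate (largest adjusted p = 0.11).

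**Figure D4:**
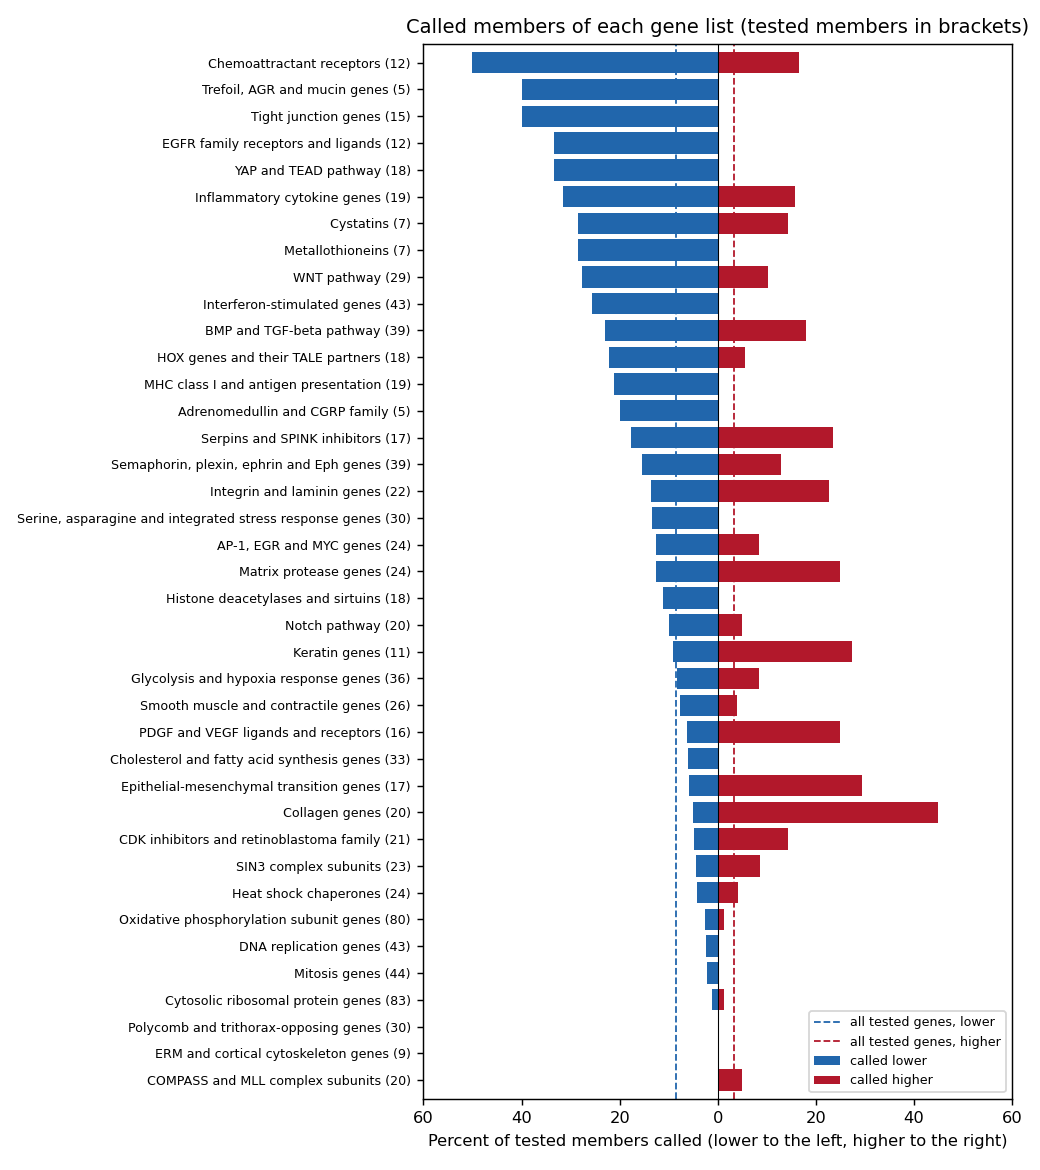
Tested members of each gene list called lower (bars to the left) and higher (bars to the right) in MLL1-KO, in percent, with the number of tested members in brackets and the shares over all 13540 genes (8.58% and 3.24%) as dashed lines. Among lists of 10 or more tested genes, chemoattractant receptors and tight junction genes reach furthest to the left and collagen genes, at 45.0%, furthest to the right.

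YAP and TEAD, the coactivator and DNA-binding factor of the Hippo pathway, had 6 of 18 pathway and target genes lower (33.3%, beside 8.58% of all genes). None was called higher (0), and the median was -0.31. The 6 were TEAD2, ANKRD1, NUAK2, CRIM1, AJUBA and CCN1. By limma's unadjusted p under 0.05 another 6 were higher, and voom called 0 higher. ANKRD1, a classical YAP target (chromosome 10, 92671853 to 92680844 on GRCh37), was at 120, 127, 106 and 101 TPM in MLL1-KO and at 534, 548, 493 and 499 TPM in SAP30-KO. Parental cells were higher than both, at 964 and 961 TPM (-2.19 ± 0.02, adjusted p = 1.0e-11). TEAD2 differed by -2.26 ± 0.07. Of the other standard targets, CCN1 differed by -0.67 ± 0.03, a call lost under median-ratio scaling (-0.56), and CCN2 by -0.47 ± 0.02, which was below the 1.5-fold minimum. The 6-base TEAD motif was found in the promoters of 8 of the 15 members with an entry (53.3%), and the ANKRD1 promoter printed above holds it at 2 places.

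EGFR family genes were lower in 4 of 12 tested (33.3%, beside 8.58% of all genes), namely EREG, ERBB3, EGF and NRG1, and higher in 0. Quantile normalization gave 2 lower, and median-ratio scaling and subtraction of neighbouring genes 3 each. EGFR itself overlapped, at 119 to 146 TPM in MLL1-KO and 96.1 to 139 TPM in SAP30-KO, and was not called. WNT genes were lower in 8 of 29 (27.6%, beside 8.58% of all genes) and higher in 3 (10.3%, beside 3.24%). However, the counts were 5 and 5 under quantile normalization, 7 and 5 under median-ratio scaling and 3 and 4 after neighbouring genes were subtracted. The ligands divided. WNT5A, a ligand of the noncanonical pathway, was at 0.275, 0.199, 0.898 and 1.32 TPM in MLL1-KO and at 12.04, 10.96, 11.2 and 10.2 TPM in SAP30-KO (-3.42 ± 0.10, adjusted p = 2.4e-08). Its receptor ROR1 differed by -1.77 ± 0.06, at 14.6 and 15.3 TPM in MLL1-KO1, 4.78 and 5.53 TPM in MLL1-KO2 and 29.0 to 34.5 TPM in SAP30-KO. WNT9A, in contrast, was at 26.6, 20.9, 34.5 and 33.2 TPM in MLL1-KO and 0.672, 0.936, 0.965 and 1.67 TPM in SAP30-KO (4.24 ± 0.16, adjusted p = 1.7e-07), and WNT5B differed by 1.54 ± 0.04. AXIN2, a standard readout of beta-catenin, had a mean difference of 0.95 ± 0.07 and was not called, since its lowest pair, at 0.57, was under 1.5-fold. It was called under 8 alternatives, namely quantile normalization (1.14), median-ratio scaling (1.05), voom (1.07), a pseudocount of 0.1 (1.02), the line as the replicate, subtraction of neighbouring genes, and without replicate 2 of SAP30-KO2 (0.97) or replicate 1 of MLL1-KO1 (0.97).

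PDGF and VEGF genes, ligands and receptors of vessel growth, were higher in 4 of 16 tested (PDGFB, THBS1, NRP2 and VEGFA) and lower in 1 (ANGPTL4, not under quantile normalization or with the line as the replicate). The direction within this list is mixed in function, because THBS1 encodes thrombospondin 1, an inhibitor of angiogenesis, and VEGFA its best-known driver. THBS1 was at 978, 903, 1113 and 1090 TPM in MLL1-KO and at 319, 287, 305 and 300.2 TPM in SAP30-KO (1.75 ± 0.05). VEGFA was at 217, 221, 235 and 248 TPM in MLL1-KO and at 130, 133, 134 and 146 TPM in SAP30-KO (0.76 ± 0.04), and both genotypes were above the parental 72.1 and 73.4 TPM. VEGFC differed by 0.77 ± 0.03 and was not called.

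Of 9 genes that the study examined one by one in these cells, 2 were called in the direct comparison. Over all genes 8.58% were called lower and 3.24% higher. CXCR4, described above and called lower, is a further gene for which the study lists ChIP-qPCR primers. PDGFB, the ligand of the PDGF receptor beta chain, was at 3.15 and 3.01 TPM in MLL1-KO1, at 1.68 and 1.83 TPM in MLL1-KO2, and at 0.121, 0.150, 0.279 and 0.0711 TPM in SAP30-KO. The parental libraries, at 1.62 and 1.83 TPM, were at the level of MLL1-KO2 and above all SAP30-KO libraries (2.12 ± 0.14, SE, adjusted p = 2.5e-05). NOTCH3 was at 0.0862 to 0.311 TPM in MLL1-KO and 0.482 to 0.671 TPM in SAP30-KO, with 1.52 TPM in each parental library (-0.61 ± 0.14). Its call, at an adjusted p of 0.027, was lost under 9 alternatives, among them quantile normalization (-0.07), median-ratio scaling (-0.58) and the omission of any of 5 libraries, namely replicate 2 of SAP30-KO1 (-0.55), either replicate of SAP30-KO2 (-0.63 and -0.60), replicate 1 of MLL1-KO1 (-0.56) and replicate 2 of MLL1-KO2 (-0.50).

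PDGFD, CLDN1, RDX and ADM2 were not called, and each was well below the parental level in both genotypes. PDGFD and RDX lie between 100 and 120 Mb of chromosome 11. The 94 genes tested there had medians against parental cells of -0.67 in MLL1-KO and -0.84 in SAP30-KO. The part of this region in the levels of PDGFD and RDX was not tested. PDGFD was at 1.08 to 2.998 TPM in MLL1-KO and 2.05 to 2.61 TPM in SAP30-KO, beside 8.32 and 8.15 TPM in parental cells (-0.36 ± 0.12). CLDN1 was at 0.180 to 0.462 TPM and 0.530 to 1.01 TPM, beside 10.2 and 11.002 TPM (-0.74 ± 0.14), and was called only without replicate 1 of MLL1-KO1 (-0.87) or with a pseudocount of 0.1. RDX, which links actin to the membrane, was at 45.0 and 48.8 TPM in MLL1-KO1, 71.9 and 72.1 TPM in MLL1-KO2 and 37.3 to 40.7 TPM in SAP30-KO, beside 140 and 137 TPM (0.57 ± 0.05). ADM2, which signals through receptors of the adrenomedullin family, overlapped at 0.518 to 0.932 TPM and 0.588 to 0.943 TPM (-0.01 ± 0.16). ARTN (-0.27 ± 0.10), IPO13 (-0.26 ± 0.05) and HSPA6 (-0.60 ± 0.14) were not called either, and in all 3 both genotypes were above the parental libraries except for 1 MLL1-KO library of HSPA6 at 0.223 TPM. A missed call does not show that levels were equal.

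Subunits of the complexes themselves were examined next. Of 20 COMPASS and MLL genes tested, MEN1, the gene of menin, was the only one called (5.00% higher, beside 3.24% of all genes). It was at 62.1, 63.2, 59.8 and 62.7 TPM in MLL1-KO and 37.7, 37.1, 38.2 and 39.9 TPM in SAP30-KO (0.69 ± 0.04), and the difference was 0.19 after the median of neighbouring genes was subtracted. Of 23 SIN3 complex genes, SAP30 and BRMS1 were higher (8.70%, beside 3.24% of all genes) and HDAC1 lower (4.35%, beside 8.58%). SAP30 is itself the gene knocked out in SAP30-KO, so its call was set by the design and the share says little about the complex. BRMS1 (0.66 ± 0.04) was not called without replicate 2 of SAP30-KO1 (0.63) or replicate 1 of MLL1-KO1 (0.63), nor after neighbouring genes were subtracted (0.10). HDAC1 was at 161, 161, 134 and 137 TPM in MLL1-KO and at 258, 270, 263 and 272 TPM in SAP30-KO, with parental values of 195 and 204 TPM between (-0.85 ± 0.02), and it lost its call under median-ratio scaling. SIN3A (-0.10 ± 0.03), SIN3B (0.12 ± 0.04) and SAP30L, the paralog of SAP30 (0.02 ± 0.04), were not called, and SAP30L was at 24.3 to 27.5 TPM in SAP30-KO, between the MLL1-KO lines. Of 30 polycomb genes tested, 0 were called in either direction by limma or voom, and by limma's unadjusted p under 0.05 for the mean of the 4 pairs 10 were lower and 10 higher. Quantile normalization gave 2 higher and median-ratio scaling 1. EZH2 was at 111 to 115 TPM in MLL1-KO and 115 to 121 TPM in SAP30-KO.

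HOX genes and their partners were lower in 4 of 18 tested (22.2%, beside 8.58% of all genes) and higher in 1 (5.56%, beside 3.24%). Among the lower were HOXB9, HOXA13 and HOXD1. HOXC8 was higher (0.80 ± 0.13), but not called with a pseudocount of 1 (0.64), without replicate 2 of SAP30-KO2 (0.76) or without replicate 2 of MLL1-KO1 (0.72). HOXB9 was at 6.86 and 7.24 TPM in MLL1-KO1, at 2.73 and 3.66 TPM in MLL1-KO2, and at 15.03 to 18.8 TPM in SAP30-KO, beside 19.4 and 18.5 TPM in parental cells (-1.71 ± 0.10, adjusted p = 9.0e-05). HOXA13 was at 0.0554 to 0.198 TPM and 0.777 to 1.71 TPM (-1.43 ± 0.15). Both lie in chromosome regions where neighbouring genes were also lower, and neither was called after these were subtracted. MEIS1, a HOX partner, was not called (-0.52 ± 0.10).

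Notch pathway genes were called about as often as all genes. Of 20 tested, 2 were lower (10.0%, beside 8.58% of all genes) and 1 higher (5.00%, beside 3.24%). Quantile normalization gave 0 lower and 3 higher, and median-ratio scaling 0 and 2. NOTCH1 was at 28.6, 24.8, 34.5 and 34.5 TPM in MLL1-KO and 12.8, 9.68, 14.4 and 12.5 TPM in SAP30-KO (1.28 ± 0.09), and NRARP, a Notch-induced inhibitor, was lower (-0.74 ± 0.09), though not after quantile or median-ratio scaling, with a pseudocount of 1 or without replicate 1 of SAP30-KO1 (-0.68). Among 24 AP-1, EGR and MYC genes tested, 3 were lower (12.5%, beside 8.58% of all genes) and 2 higher (8.33%, beside 3.24%). BATF (-2.10 ± 0.16), FOSL2 (-1.02 ± 0.02) and MXD1 were lower and IER2 (1.11 ± 0.03) and FOSL1 (0.94 ± 0.03) higher, while quantile and median-ratio scaling each gave 2 lower and 4 higher. FOSL2 was at 59.4 to 65.8 TPM in MLL1-KO and 124 to 132 TPM in SAP30-KO, and FOSL1, its relative in the AP-1 dimer, at 615 to 708 TPM and 322 to 355 TPM. Semaphorin, plexin, ephrin and Eph genes, which guide axons and cell contacts, had 6 of 39 lower (15.4%, beside 8.58% of all genes) and 5 higher (12.8%, beside 3.24%). That balance turned to 3 and 9 under quantile normalization, 5 and 6 under median-ratio scaling and 5 and 8 after neighbouring genes were subtracted. Among them were EPHB3 (-2.06 ± 0.12), SEMA3B (-1.59 ± 0.05), EFNB1 (1.58 ± 0.06) and PLXNA2 (1.11 ± 0.05).

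Genes of cell division were nearly free of calls. Of 43 DNA replication genes, 1 was lower (RPA3, 2.33%), and of 44 mitosis genes, 1 was lower (ANLN, 2.27%, beside 8.58% of all genes), with 0 higher in either list by limma or voom. RPA3 lost its call under quantile normalization (-0.77) and median-ratio scaling (-0.73), each of which gave 0 replication genes lower and 1 higher. By limma's unadjusted p under 0.05, 12 replication and 5 mitosis genes were higher. MKI67, the proliferation marker Ki67, overlapped at 218 to 268 TPM in MLL1-KO and 170 to 232 TPM in SAP30-KO. Of 21 cyclin-dependent kinase inhibitors and related genes, CDKN1C, CDKN1A and CCND1 were higher (14.3%, beside 3.24% of all genes) and CDKN2C lower (4.76%, beside 8.58%). CDKN1A, which encodes p21, was at 90.9, 88.9, 154 and 152 TPM in MLL1-KO and at 51.9, 48.3, 47.4 and 46.9 TPM in SAP30-KO (1.26 ± 0.03), and CDKN1C, which encodes p57, at 20.3, 20.1, 35.5 and 35.5 TPM and 4.61, 2.74, 4.22 and 4.49 TPM (2.62 ± 0.11). CDKN2C, which encodes p18, differed by -1.23 ± 0.02.

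Metabolic lists differed in their share of calls, beside 8.58% lower and 3.24% higher over all genes. Of 36 glycolysis and hypoxia genes, 3 were lower (8.33%: CA12, EPAS1 and EGLN3) and 3 higher (8.33%: SLC2A3, PFKFB3 and NDRG1). EPAS1, the hypoxia-inducible factor 2 alpha, was at 33.2, 31.0, 20.3 and 21.1 TPM in MLL1-KO and at 100, 91.7, 94.2 and 88.5 TPM in SAP30-KO (-1.84 ± 0.04), while the glucose transporter SLC2A3 differed by 1.25 ± 0.04. Cholesterol and fatty acid synthesis had 2 of 33 lower (6.06%), TM7SF2 (-1.14 ± 0.09) and HSD17B7 (-0.64 ± 0.06), the latter not under quantile normalization (-0.53), median-ratio scaling (-0.54), voom (-0.62) or neighbour subtraction (-0.53), nor without replicate 2 of SAP30-KO2 (-0.61). The serine and stress-response list had 4 of 30 lower (13.3%), among them the amino acid transporter SLC1A4 (-1.73 ± 0.05). Metallothioneins had 2 of 7 lower (28.6%), with MT1A at 3.10 and 3.14 TPM in MLL1-KO1, listed at 0 in MLL1-KO2, and at 22.5 to 29.5 TPM in SAP30-KO. Of 83 ribosomal protein genes, RPL39L was lower (-0.93 ± 0.04) and RPS3 higher (0.80 ± 0.02). Of 80 oxidative phosphorylation genes, NDUFA7 and NDUFA4 were lower and NDUFV1 higher. NDUFA7 lost its call under median-ratio scaling and neighbour subtraction. NDUFA4 (-0.63 ± 0.03), close to the 1.5-fold minimum, was not called under quantile normalization (-0.58), median-ratio scaling (-0.53), voom (-0.61) or a pseudocount of 1, after neighbour subtraction, or without replicate 2 of SAP30-KO1 or replicate 1 of MLL1-KO2. Heat shock chaperones had 1 of 24 lower (HSPA2) and 1 higher (HSPA1A), and none of the 9 ERM and cortical cytoskeleton genes tested was called by limma or voom, although 5 were lower and 4 higher by limma's unadjusted p under 0.05.

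Smaller families also held called genes, whose counts stand beside 8.58% lower and 3.24% higher over all genes. Cystatins, inhibitors of cysteine proteases in a cluster on chromosome 20, had CST4 (-2.53 ± 0.10) and CST2 (-1.81 ± 0.13) lower and CST5 higher of 7 tested. CST4 was at 13.0, 16.6, 32.3 and 37.3 TPM in MLL1-KO and at 121, 136, 128 and 148 TPM in SAP30-KO, and reads of these near-identical genes can be shared. CST5 was listed at 0 in all SAP30-KO libraries and at 0.997 to 2.23 TPM in MLL1-KO, at least 2.92-fold higher against a floor of 3 reads per library. Of 5 trefoil, AGR and mucin genes, AGR2 and MUC1 were lower, the latter (-1.10 ± 0.18) not under quantile normalization (-0.75) or without replicate 1 of SAP30-KO1 (-1.02) or replicate 1 of MLL1-KO2 (-0.90). Of 5 genes of the adrenomedullin and CGRP family, CALCR, which encodes the calcitonin receptor, was lower (-1.25 ± 0.13).

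A set of genes was read in one genotype and at or under 3 reads in every library of the other. They were chosen after their values were seen, with at least 50 reads asked for in each library of the genotype that had them. At or under 3 reads in MLL1-KO by this rule were 14 genes (DCAF8L2, GABBR2, AGR2, ADD2, EMR1, ZNF257, EEF1A2, SRGAP3, C1orf115, GSTM2, SLC2A10, SYNGR1, SMPD3 and IQGAP2), and 6 of them had 0 reads in all 4 MLL1-KO libraries. Parental cells had at least 50 reads in both libraries for 6 of the 14. ZNF257 had 46 and 62 parental reads, and the other 7 (DCAF8L2, GABBR2, SRGAP3, IQGAP2, ADD2, SLC2A10 and GSTM2) had 8 to 23, so that these were higher in SAP30-KO than in parental cells. At or under 3 reads in SAP30-KO were 4 genes (MFAP2, SLCO3A1, BMP2 and C8orf42), and parental cells had at least 50 reads in both libraries for 3 of these 4. The intervals that follow cover counting error only.

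AGR2, a disulfide isomerase of the secretory pathway (chromosome 7, 16831435 to 16873057), had 0 reads in the 4 MLL1-KO libraries and 124, 151, 144 and 118 reads in those of SAP30-KO, and parental libraries held 1135 and 1202 reads. SAP30-KO was thus also below the parental level, and the difference to MLL1-KO was at least 42.7-fold against a floor of 3 reads per library. DCAF8L2, on the X chromosome, had 0 reads in MLL1-KO and 266, 313, 342 and 298 reads in SAP30-KO, at least 96.5-fold, and was near absent in parental cells, with 12 and 13 reads. EEF1A2, a tissue-restricted elongation factor, had 1, 1, 0 and 1 reads in MLL1-KO against 269 to 315 in SAP30-KO, a ratio of 377 with an interval from 129 to 1832, beside 200 and 184 parental reads. GABBR2, a subunit of the GABA-B receptor, was at least 57.9-fold lower in MLL1-KO. In the other direction, MFAP2, a microfibril protein of the matrix, had 208, 200, 122 and 173 reads in MLL1-KO and 2, 2, 1 and 0 in SAP30-KO (ratio 147, interval 62.7 to 454), and SLCO3A1, an organic anion transporter, had a ratio of 264 with an interval from 121 to 721.

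Neighbouring genes shared a direction in some chromosome regions. In 154 windows of 20 Mb with at least 20 tested genes, the median difference had quartiles of -0.17 and -0.04 and ran from -0.64 to 0.49, and it was 0.4 or more from 0 in 7 windows. Adjoining windows were joined into 4 regions after their values were seen. The first 40 Mb of chromosome 7 had a median of -0.64 over 154 genes, of which 143 were below 0, and 40.3% were called lower, beside 8.58% of all genes. The stretch from 60 to 80 Mb of chromosome 11 had a median of 0.49 over 273 genes, with 19.0% called higher, beside 3.24%. The stretches from 60 to 120 Mb of chromosome 1 (225 genes) and from 40 to 60 Mb of chromosome 17 (192 genes) had medians of -0.47 and -0.44. The medians in MLL1-KO1 and MLL1-KO2 were alike in all 4, at -0.64 and -0.62 on chromosome 7 and 0.45 and 0.52 on chromosome 11.

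Set beside the parental libraries, the regions differed in which genotype was away from them. On chromosome 7 the median was -0.27 in MLL1-KO and 0.37 in SAP30-KO. On chromosome 11 it was 0.03 in MLL1-KO and -0.45 in SAP30-KO, on chromosome 1 it was -0.17 and 0.29, and on chromosome 17 it was -0.40 and 0.04. SIN3A/3B-DKO had medians of 0.34, 0.05, -0.02 and 0.01 in the same order. A region on chromosome 4, the first 60 Mb, differed between the MLL1-KO lines, with medians against SAP30-KO of -0.56 for MLL1-KO1 and -0.06 for MLL1-KO2. KMT2A, PDGFD and RDX lie in the window from 100 to 120 Mb of chromosome 11, where the medians against SAP30-KO were -0.11 for MLL1-KO1 and 0.41 for MLL1-KO2. Against parental cells this window had medians of -0.67 in MLL1-KO, -0.84 in SAP30-KO and -0.26 in SIN3A/3B-DKO. The last window of chromosome 2 (23 genes) had -0.05 for MLL1-KO1 and -0.88 for MLL1-KO2 against SAP30-KO. The 4 joined regions held 844 of the tested genes with a position (6.47%), 14.01% of the lower calls and 17.3% of the higher calls. Because the regions were chosen by their median difference in this same comparison, more calls there follow from the choice. The same holds for the shares of calls given above for single regions. DNA copy number was not measured in these data, and its part in the result was not tested.

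**Figure D5:**
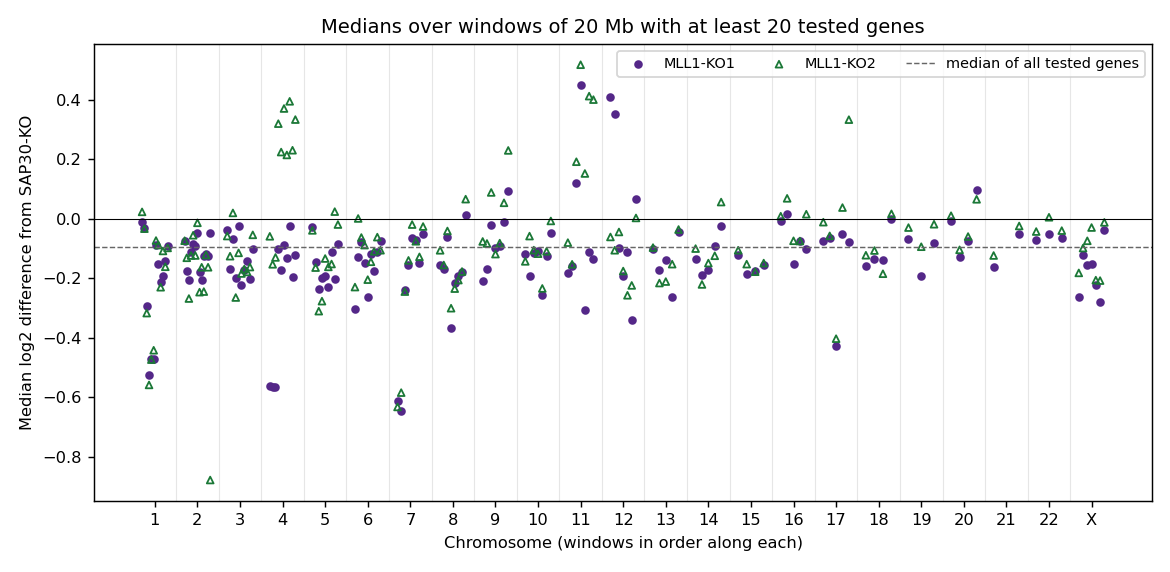
Median difference from SAP30-KO (log2 scale) in windows of 20 Mb with at least 20 tested genes, in order along each chromosome, with filled circles for MLL1-KO1, open triangles for MLL1-KO2 and a dashed line at the median of all genes. Both lines stand away from 0 together on parts of chromosomes 1, 7, 11 and 17 and apart from each other on chromosome 4.

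Several named genes lie in these regions. MEN1, BRMS1, FOSL1, RPS3 and NDUFV1 on chromosome 11, RPA3, ANLN, NDUFA4, IL6 and HOXA13 on chromosome 7, CCN1 and ROR1 on chromosome 1, and HOXB9 and HDAC5 on chromosome 17 were called as deposited and not after the running median of 51 neighbouring genes had been subtracted. RPA3, for example, differed by -0.84 ± 0.03 where its neighbours had a median of -0.75, and BRMS1 by 0.66 ± 0.04 where they had 0.56. The largest differences kept their call, with ACTG2 at 6.61, ENG at 5.01, ID4 at -5.53, CLDN4 at -4.49 and NGFR, in the chromosome 17 region, at -5.31 after subtraction. Of the interferon-stimulated genes, 9 were called lower after subtraction, and collagen genes then had 10 higher and 1 lower.

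The MLL1-KO lines also differed from each other for genes that separated both of them from SAP30-KO. S100A4, a calcium-binding protein linked to cell motility, was at 1683 and 1808 TPM in MLL1-KO1, at 321 and 330 TPM in MLL1-KO2, and at 133, 160, 170 and 180 TPM in SAP30-KO. Both lines were above SAP30-KO, but only MLL1-KO1 was above the parental 332 and 377 TPM, and the call of the mean difference (2.24 ± 0.07) was lost when the line was taken as the replicate (largest adjusted p = 0.076). MMP1, an interstitial collagenase, was at 6.39 and 7.82 TPM in MLL1-KO1, at 30.03 and 32.1 TPM in MLL1-KO2, and at 1.92 to 3.99 TPM in SAP30-KO (2.18 ± 0.08), and its call was likewise lost with the line as the replicate (largest adjusted p = 0.15). KRT81, a hair keratin, was at 7.06 and 6.65 TPM in MLL1-KO1 and at 55.2 and 59.0 TPM in MLL1-KO2, beside 83.5 to 87.2 TPM in SAP30-KO. It was not called, since its highest pair of lines, at -0.56, was under 1.5-fold, and it was called without replicate 2 of MLL1-KO2 (-2.08).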

How the data were processed

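RNA-Seq of parental MDA-MB-231 cells and 6 edited lines was used, with 2 libraries of each of the 7 conditions, grouped by the submitters' labels. The authors prepared libraries with a KAPA mRNA kit and sequenced them on an Illumina NextSeq instrument. The submitters' processing notes name FastQC 0.11.2, TopHat, featureCounts and hg19, and strand use and annotation are not given in the sources used here. The authors deposited 1 table of normalized values per gene and library, which they named RPKM. The deposited values were used as TPM, because the values of each library have 1 common sum. TPM cannot show a change in total RNA, and a rise of abundant genes lowers the rest. Low values rise in steps of 1 read, from which whole reads were recovered (tolerance 0.02) for 94.0% of genes above 0 and for all genes tested, and libraries held 18414980 to 23162603 reads. A gene with few reads is imprecise at this depth.

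The tests covered the 13540 genes that reached 1 TPM in 2 or more of the 14 libraries, on log2(TPM + 0.5). Line means were fitted with limma 3.58.1 in R 4.3.3 over all 14 libraries with a variance trend, and calls were made as the report states. The calls were also tried on simulated reads in which the lines of a genotype did not differ, so the trial does not cover differences between lines. There, 90% of 100 genes changed 2-fold were recovered, with 0 false calls among 13340 unchanged genes. The spread between simulated libraries was set by hand and was the same for all lines. Changed genes were drawn only from genes with ample reads, so the recovery does not cover genes with few reads. Neither figure is an error rate for the calls in the real data. Named genes were the targeted genes, those the study names, the 8 largest differences in each direction with a mean of at least 5 TPM in the higher genotype, and for each list its key members and its 2 largest calls in each direction. Genes shown for their promoter or read counts and the chromosome regions were chosen after values were seen. The members and lists were chosen with earlier results of these data known. Read count ratios have exact 95% intervals. Positions are GRCh37 (GENCODE 44), matched by symbol or by a single RefSeq synonym, and 1106 listed genes had none. As deposited, 28 gene names had become dates and are not named. Tables and figures were made with Python 3.11.15. Alternatives were pseudocounts of 0.1 and 1, no filter, 2 scalings, other fold minimums, the mean alone, the line as the replicate, only the 8 libraries, a replicate block, leaving out each library, voom on recovered reads, and subtraction of the median of 51 neighbouring genes. A fit of only the genes with a position was added after seeing the data. Some genes of the lists are counted but not reported here by name.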

Additional observations from a re-analysis of the deposited data

Results flagged for a closer look

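By chance, Dixon's criterion marks about 1 in 20 groups of 4 like libraries. Each group here joins 2 lines with 2 libraries each, so that rate does not apply. A difference between lines can also hide a library that stands apart. Among the named genes, 10 of 302 groups of 4 libraries held 1 library standing apart from the other 3 by this criterion. In MLL1-KO these were EEF1A2 in replicate 1 of MLL1-KO2 (0.0 TPM), HOXC8 in replicate 1 of MLL1-KO1 (1.66 TPM), CDH1 in replicate 2 of MLL1-KO2 (0.0 TPM), MCM2 in replicate 2 of MLL1-KO2 (125 TPM) and SRGAP3 in replicate 1 of MLL1-KO1 (0.0136 TPM, 1 read). In SAP30-KO they were BMP2 in replicate 2 of SAP30-KO2 (0.116 TPM, 3 reads), NRARP in replicate 2 of SAP30-KO1 (2.16 TPM), KRT80 in replicate 1 of SAP30-KO2 (161 TPM), IL1B in replicate 2 of SAP30-KO2 (0.326 TPM) and CCN2 in replicate 2 of SAP30-KO1 (575 TPM).

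At least 2-fold differences between MLL1-KO1 and MLL1-KO2, which enter the comparison with SAP30-KO as equals, were found by limma for 31 of the 153 named genes, at an adjusted p under 0.05. Of these, 16 were higher in MLL1-KO1. By log2 difference they were MT1A (2.86), S100A4 (2.42), IL1B (2.18), SERPINB9 (1.48), ROR1 (1.46), ADAMTS12 (1.29), OAS1 (1.28), COL6A3 (1.19), LPAR1 (1.16), ANGPTL4 (1.15), KRT7 (1.11), LINC00261 (1.07), SLCO3A1 (1.06), HOXB9 (1.04), CDH3 (1.02) and IL6 (1.02). The 15 that were higher in MLL1-KO2 were KRT81 (-2.97), CXCR4 (-2.66), NGFR (-2.15), MMP1 (-2.06), CST1 (-2.01), IL24 (-1.62), IFI27 (-1.47), SLC1A4 (-1.31), MYH10 (-1.23), CST4 (-1.21), ADAMTS7 (-1.19), ENG (-1.11), WNT5A (-1.11), BMP2 (-1.10) and CLDN23 (-1.04). Matrix, adhesion, cytokine and receptor genes are on both sides. Each line is a mixture of clones, and the part of clones in these differences was not tested.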

How the results depend on the processing

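The 1162 lower and 439 higher calls became 517 and 195 with a 2-fold minimum, 3286 and 1454 with no fold minimum, and 1823 and 858 when the mean of the 4 pairs alone was asked to pass. Quantile normalization gave 792 lower and 692 higher calls, median-ratio scaling 924 and 600, and subtraction of neighbouring genes 806 and 472, of which 778 and 354 were among the calls as deposited. Under the pseudocounts, no filter, the line as the replicate, only the 8 libraries and voom the counts ran from 1033 to 1486 lower and 404 to 657 higher, and leaving out each library gave 1113 to 1155 and 418 to 447. The cause of these shifts was not tested. Of the 119 named genes called, 90 kept call and direction under every alternative other than the 2-fold minimum, and 73 also with it. Neighbour subtraction reversed NDUFA4 (0.1142). Uncalled genes near 0 also reversed: SIN3A under median-ratio scaling (0.0021) and neighbour subtraction (0.0589), EZH2 under the same (0.0201 and 0.0066), VIM under quantile normalization (-0.2954), CDH1 under it (0.0903) and without single libraries (-0.245 to 0.0006), ADM2 under quantile normalization (0.4132), median-ratio scaling (0.0536), voom (0.0189) and without single libraries (-0.1094 to 0.094), and SAP30L without single libraries (-0.0005 to 0.0459). Replicate numbers did not pair the libraries (correlations of deviations from -0.01 to 0.05), and a replicate block gave 1163 and 441 calls and changed no call of a named gene. Depth limits the genes with few reads, such as NOTCH3.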
